A study of Mus musculus with 20 samples.

Results

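The genes described here are Tecrl, the gene targeted in these mice, its paralog Tecr, and the enzymes that share the fatty acid elongation cycle with TECR. They were taken from the count table by gene name: Tecrl, Tecr, Hsd17b12, Hacd1, Hacd2, Hacd3, Elovl1, Elovl5, Elovl6 and Elovl7, which are 10 of the 29339 genes listed. Each was measured by poly-A RNA-seq in 20 heart libraries of C57BL/6 mice aged 8 weeks. By their labels, 5 libraries were male wild type (WT), 5 male TECRL-/- (KO), 3 female WT and 7 female KO. The library names form an S series (S1 to S12, with 6 WT and 6 KO) and a WT/TKO series (WT1 and WT2, and TKO1 to TKO6). WT mice were the only controls, and the sources used here do not say how the KO was made or which part of Tecrl was deleted.

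Total counts per library ran from 12540002 to 20038593. Sex-linked genes went against the label in 6 libraries. S7, S8 and S9, labelled male WT, held Xist at 252 to 325 CPM (counts scaled to the size of each library) and Y-linked genes at 0, and S4, S5 and S6, labelled female KO, held Y-linked genes at 181 to 203 CPM and Xist at no more than 0.256 CPM. In the S series, all WT libraries therefore carried Xist and all KO libraries Y-linked transcripts, so that genotype and chromosomal sex cannot be told apart there. The ventricular markers Myh6, Myl2 and 7 others were present in every library, at a summed 36190 to 58060 CPM. Library S7 stood apart from the rest and is described on its own. Groups are named by their labels throughout, and since Tecrl was not lower in KO libraries, the counts give no check of the genotype label, including that of these 6 libraries, of which S4 to S6 carry the KO effect by female labels.

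Fatty acids are lengthened in the endoplasmic reticulum by a cycle of reactions that adds a pair of carbons per turn. An ELOVL elongase condenses the acyl-CoA with malonyl-CoA, HSD17B12 reduces the ketone, an HACD dehydratase removes water, and TECR reduces the remaining double bond. TECRL is a reductase-like paralog of TECR in the same membrane, abundant in heart and skeletal muscle, and loss of its function in humans is linked to catecholaminergic polymorphic ventricular tachycardia.

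The promoters of the paralogs are shown because the reductase genes are the most abundant of the set and their levels ran together across libraries. Tecrl lies at chr5:83278145-83355195 and Tecr at chr8:83571698-83607971, both on the minus strand of GRCm38. The 250 bases before the RefSeq start sites (GRCm38.p6, minus strand, chr5:83355196-83355445 and chr8:83594492-83594741) are given 5′ to 3′ with matches to searched motifs in capitals. All 10 genes had an entry. The RefSeq start of Tecr lies inside the longer GENCODE gene.
Tecrl: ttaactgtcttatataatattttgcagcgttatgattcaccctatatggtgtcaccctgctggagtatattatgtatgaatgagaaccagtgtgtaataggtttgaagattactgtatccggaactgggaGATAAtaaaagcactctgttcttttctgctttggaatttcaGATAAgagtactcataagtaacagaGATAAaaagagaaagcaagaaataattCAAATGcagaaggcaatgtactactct
Tecr: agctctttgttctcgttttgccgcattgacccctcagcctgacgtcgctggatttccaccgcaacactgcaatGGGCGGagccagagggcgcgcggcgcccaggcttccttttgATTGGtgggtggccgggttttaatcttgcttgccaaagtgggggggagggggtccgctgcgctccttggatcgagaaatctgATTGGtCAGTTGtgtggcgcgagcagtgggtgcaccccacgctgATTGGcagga
Windows were searched on both strands for TATAAA, known as the TATA box, GGGCGG, which SP factors bind, CCAAT, which NF-Y binds, GATAA, which GATA factors bind, CANNTG, known as the E-box, and CATTCC, which TEAD factors bind. The capitalized matches do not overlap each other. The Tecrl window held GATAA 3 times, starting 120, 79 and 54 bases before the start site, and 1 E-box at 27 bases. Its GC content was 34.4% with 2 CpG dinucleotides, against medians of 52.4% and 6 over the 32817 RefSeq mouse windows of this length. The Tecr window had a GC content of 60.4%, 17 CpG dinucleotides, 1 match to GGGCGG, 3 to CCAAT on the reverse strand at 136, 54 and 10 bases, and 1 E-box. Of all windows, 22.6% held GATAA, 33.8% held CCAAT, 32.7% held GGGCGG, 66.2% held an E-box, 12.4% held TATAAA and 12.6% held CATTCC. These letter matches describe the windows only.

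To compare levels between genes, the FPKM values of the authors were used, which are counts per length and library total. Tecr was the most abundant member, with a median of 163 FPKM (88.6 to 199) over the 20 libraries, and Tecrl followed at 35.2 FPKM (24.5 to 46.5). Tecr exceeded Tecrl in 20 of 20 libraries, with a ratio of 3.19 to 5.39. The dehydratase Hacd1, the muscle form of its family, had a median of 20.03 FPKM and stood below Tecrl in 20 of 20 libraries. Elovl5, which lengthens polyunsaturated chains, had a median of 15.6 FPKM and lay below Hacd1 in 16 of 20 libraries. The next members sat close together: dehydratase Hacd3 at 9.51 FPKM, the ketoreductase Hsd17b12 at 8.79 FPKM and Elovl1, which makes very long saturated and monounsaturated chains, at 8.72 FPKM. Hacd3 exceeded Hsd17b12 in 14 of 20 libraries and Hsd17b12 exceeded Elovl1 in 11 of 20, so neighbours in this stretch of the order were not separated beyond their spread. Hacd2, the widely expressed dehydratase, had a median of 1.79 FPKM. The low end held Elovl6, which lengthens palmitate, at 0.153 FPKM and Elovl7 at 0.0861 FPKM. Elovl7 had 1 to 30 counts, with 3 or fewer in 5 of 20 libraries, and Elovl6 ran from 1 count in WT1 to 282 in S7. The fold changes of both carry wide intervals. Exons of Hacd2, Elovl1 and Elovl6 overlap a gene on the other strand by 32, 53 and 34 bases, where reads cannot be assigned without strand.

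**Figure D1:**
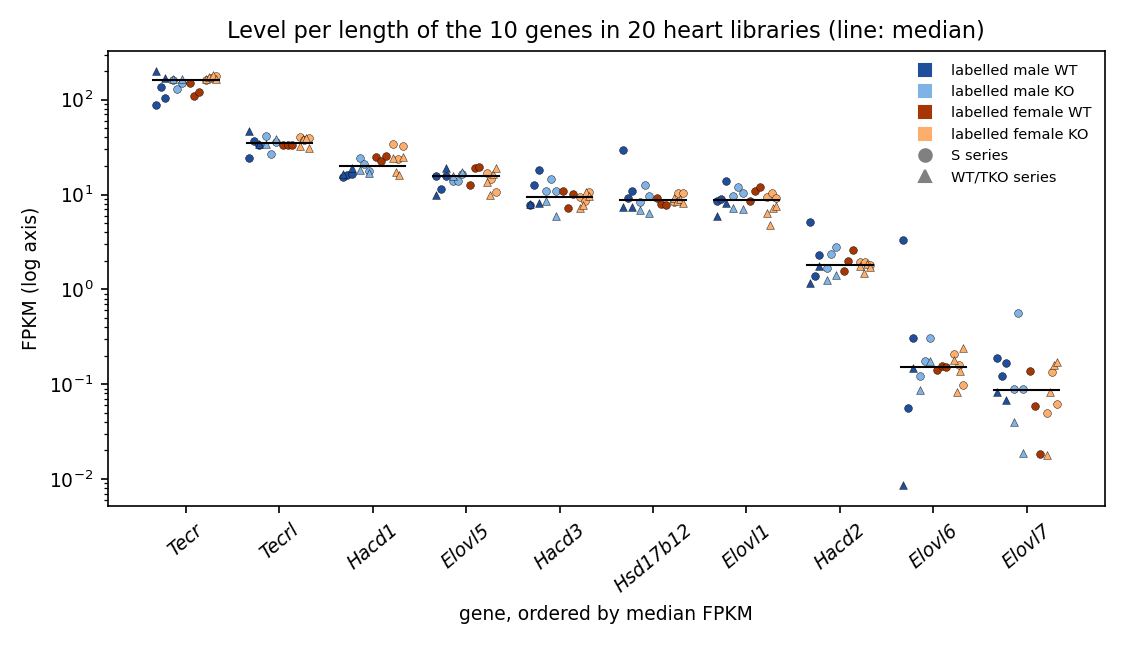
FPKM (log axis) of the 10 genes in 20 libraries, coloured by labelled group, with circles for the S series and triangles for the WT/TKO series; the line is the median over libraries. Tecr lies above Tecrl in every library, and a single male WT library of the S series (S7) lies far above the rest for Hsd17b12, Hacd2 and Elovl6.

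The first question was whether the transcript of the targeted gene was lower in KO hearts. No lower level was found, and the WT and KO values of Tecrl overlapped in both labelled sexes. In the libraries labelled male, the WT values were 123 CPM in WT1, 81.7 in WT2, 51.9 in S7, 88.3 in S8 and 70.2 in S9. The KO values were 99.4 CPM in S10, 60.3 in S11, 77.1 in S12, 84.8 in TKO5 and 98.1 in TKO6. The KO values lie inside the WT range. In the libraries labelled female, WT values were 75.5 CPM in S1, 85.2 in S2 and 76.0 in S3, and the 7 KO values had a lowest of 70.4, a median of 90.8 and a highest of 95.2 CPM. These groups overlap as well. On the log2 scale KO differed from WT by 0.02 (SE 0.195) with male labels and by 0.22 (SE 0.135) with female labels, with edgeR adjusted p of 0.992 and 0.40. Over all 20 libraries it was 0.04 (SE 0.125, adjusted p = 0.996), and its 95% interval ran from 85.9% to 123% of the WT level. The sign of this small difference depended on the libraries: it was 0.20 (SE 0.143) in the S series alone, -0.25 (SE 0.168) in the WT/TKO series alone, and -0.15 (SE 0.131) without the 6 libraries whose sex-linked genes went against their label. None of these passed the test. The counts are summed over the gene and do not show which exons the reads cover, so they do not show whether a KO library carried an intact transcript.

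Tecr, which performs the last step of the cycle, was measured higher in KO than in WT among the libraries labelled female, but the difference did not pass the test over all genes. WT values were 324 CPM in S1, 265 in S2 and 253 in S3, and the 7 KO values had a lowest of 341, a median of 375 and a highest of 404 CPM. The groups do not overlap, as was so for 4.96% of the genes tested. The log2 fold change was 0.40 (SE 0.134), with an unadjusted p of 0.0108 and an adjusted p of 0.197 by edgeR. With series as covariate, this value rests on S1 to S3, which carried Xist, against S4 to S6, which carried Y-linked transcripts. Genotype and chromosomal sex therefore cannot be told apart in it. Without S1, the highest of the WT values, the log2 fold change was 0.51 and passed, with an adjusted p of 0.0166 by edgeR, but so did 2409 genes in all (16.8%), against 8 with S1 kept. Without S4 to S6 it was 0.43 with an adjusted p of 0.0965, but WT is then all S series and KO all WT/TKO series, so that genotype and series cannot be told apart. In the libraries labelled male, WT values were 489 CPM in WT1, 383 in WT2, 175 in S7, 305 in S8 and 209 in S9, and KO values were 360 CPM in S10, 274 in S11, 303 in S12, 381 in TKO5 and 394 in TKO6. Here the WT values span the KO values on both sides, and the log2 fold change was 0.18 (SE 0.192, adjusted p = 0.882). By library series the direction was opposite, at 0.42 (SE 0.145) in the S series alone and -0.20 (SE 0.124) in the WT/TKO series alone, neither passing the test. That opposition was not itself tested, and in the S series genotype and chromosomal sex cannot be told apart. Without S7, the male value was 0.07 for Tecr and -0.08 for Tecrl. By female labels, 4 of 4 tested atrial markers and 3 of 3 tested markers each of white and brown adipocytes were also higher in KO. Lower were 5 of 5 mesothelial and 2 of 2 tested skeletal muscle markers, and the other lists went both ways. No marker passed the adjusted test there, and their part in the Tecr values was not tested.

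**Figure D2:**
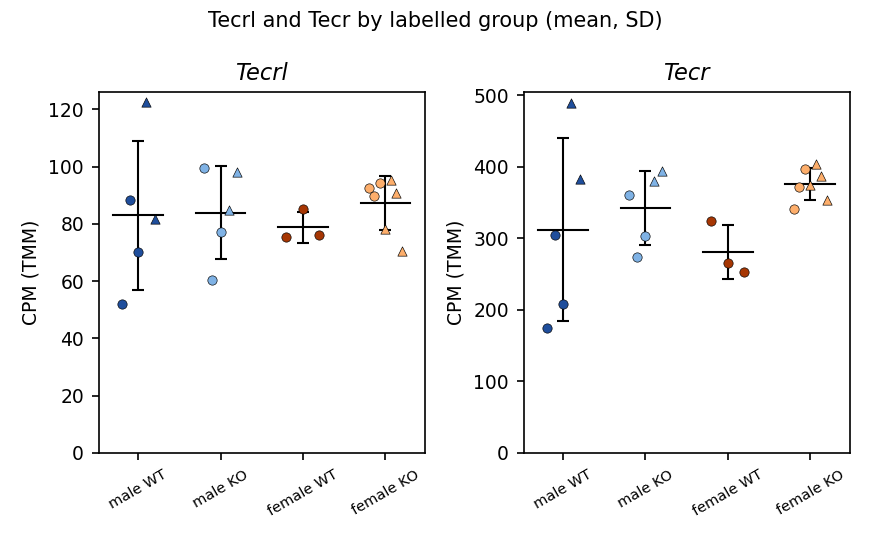
CPM of Tecrl and Tecr in each library by labelled group (circles S series, triangles WT/TKO series), with the mean and SD. Tecrl KO libraries sit between 60.3 and 99.4 CPM, inside the range of all WT libraries, whose ends are male WT. By female labels Tecrl KO (70.4 to 95.2 CPM) passes WT (75.5 to 85.2 CPM) on both sides. The female KO libraries of Tecr sit between 341 and 404 CPM, above the 3 female WT libraries.

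Hsd17b12, the ketoreductase, stood at 18.1 to 23.6 CPM in 4 of 5 male WT libraries and at 64.8 CPM in S7. Its male KO values were 16.7 to 29.0 CPM, its female WT values 18.1 to 21.5 CPM and its female KO values 19.3 to 25.4 CPM. KO differed from WT by -0.47 (SE 0.274) on the log2 scale by male labels and 0.20 (SE 0.148) by female labels. The test of that difference between the labelled sexes gave 0.88 (SE 0.361), with an unadjusted p of 0.0250 and an adjusted p of 0.268 by edgeR. Without S7 the male value was -0.05 and the difference between the sexes was 0.32, so both rested on S7.

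Among the dehydratases, Hacd1 ran from 29.3 to 41.2 CPM in male WT and from 34.5 to 52.8 CPM in male KO libraries, with a log2 fold change of 0.24 (SE 0.143). By female labels, its 3 WT values of 50.8, 52.9 and 52.1 CPM lay inside the KO range of 33.4 to 70.4 CPM, and the log2 fold change was 0.30 (SE 0.182). Hacd2 had log2 fold changes of -0.25 (SE 0.283) and -0.13 (SE 0.20), and Hacd3 of -0.12 (SE 0.212) and 0.01 (SE 0.167), for male and female labels in turn. Without S7 the male value of Hacd2 was 0.12, of the other sign. None of the 3 dehydratase genes passed the test in either labelled sex.

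Of the elongases, Elovl1 differed by 0.04 (SE 0.141) and -0.16 (SE 0.177), Elovl5 by 0.12 (SE 0.138) and -0.32 (SE 0.237), and Elovl7, which acts on saturated chains, by 0.15 (SE 0.638) and 0.09 (SE 0.786), on the log2 scale for KO against WT by male and then female labels. Elovl6 differed by -1.50 (SE 1.04) by male labels and by 0.02 (SE 0.425) by female labels. Its male WT values were 0.0618 CPM in WT1, 0.983 in WT2, 19.1 in S7, 0.369 in S8 and 1.78 in S9, against 0.585 to 1.78 CPM in the male KO libraries. Without S7 the log2 fold change was 0.43, of the other sign.

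Counted over the members, 0 of 10 passed an adjusted p of 0.05 by edgeR for KO against WT with male labels, with female labels and over all libraries, where 0%, 0.0551% and 0% of all genes tested passed. At an unadjusted p under 0.05 the count was 0, 1 (Tecr) and 0 of 10, where 4.75%, 17.9% and 4.93% of all genes had such a p. DESeq2 and limma on log2(FPKM + 1) also called 0 of 10 in each. At the thresholds in the methods of the study, an unadjusted p under 0.05 and a change of 0.58 or more either way on the log2 scale, 0 of 10 passed with male labels and 0 of 10 with female labels, against 2.09% and 9.99% of all genes. With a genotype by labelled sex term, 0 of 10 members and 0% of all genes passed the adjusted test, and 1 of 10 had an unadjusted p under 0.05, as did 15.6% of all genes. The median log2 fold change of the 10 was 0.03 for male and 0.06 for female labels, beside -0.01 and -0.02 over all genes tested.

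**Figure D3:**
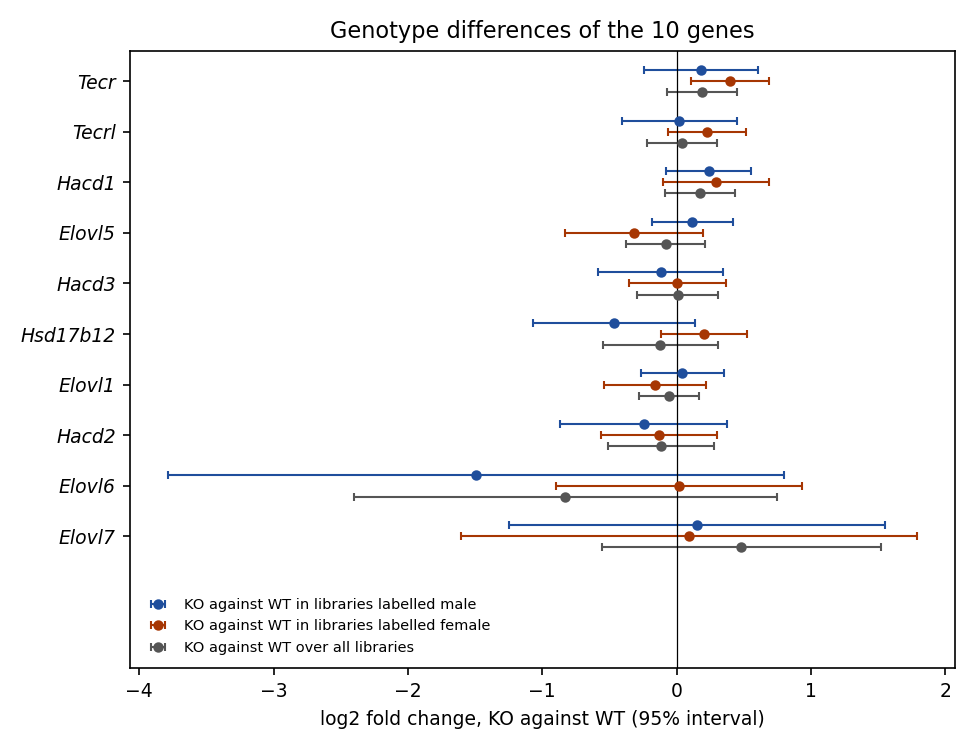
Log2 fold change of KO against WT (edgeR, points) with 95% intervals (bars) for libraries labelled male, labelled female and all 20, genes ordered by median FPKM. The female interval of Tecr, 0.11 to 0.69, is the single interval that does not cross 0, and those of Elovl6 and Elovl7 are the widest.

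The library series gave the one member that passed the adjusted test. Among KO libraries, Elovl1 was lower in the WT/TKO series than in the S series. All 6 KO libraries of the S series carried Y-linked transcripts and TKO1 to TKO4 carried Xist, so series and chromosomal sex largely go together here and the labelled sex used as covariate does not separate them. S4 to S6 held 24.6, 28.2 and 25.2 CPM and S10 to S12 held 27.3, 31.1 and 26.0 CPM. TKO1 to TKO6 held 17.8, 13.8, 19.3, 20.2, 20.8 and 20.9 CPM. The 2 series do not overlap, as was so for 5.54% of the genes tested. The log2 fold change was -0.50 (SE 0.101), with an adjusted p of 0.00724 by edgeR, and 1 of 10 members passed where 11.2% of all genes tested did. In the KO libraries labelled male alone and without S4 to S6, Elovl1 no longer passed, with log2 fold changes of -0.44 in each and adjusted p of 0.227 and 0.228. The former, S10 to S12 against TKO5 and TKO6, all carry Y-linked transcripts, and 7 genes in all passed there. The WT libraries had 20.8 to 34.5 CPM in the S series and 18.2 and 22.8 CPM in WT1 and WT2, which overlap. Of the cell type markers, 6 macrophage genes summed to 190 to 333 CPM in the KO libraries of the S series and 151 to 183 CPM in TKO1 to TKO6, and 7 white adipocyte genes to 8.86 to 31.4 CPM and 0.501 to 3.32 CPM. The 5 atrial genes summed to 15.3 to 7207 CPM and 9.66 to 17.9 CPM, and the 5 red blood cell genes to 307 to 1791 CPM and 157 to 411 CPM, each in the same order. Of the ventricular genes, 3 of 9 passed as higher in TKO1 to TKO6, with sums of 40410 to 50880 CPM and 48570 to 58060 CPM. Their part in the result was not tested. In heart tissue, fewer cells of a type and less RNA per cell cannot be told apart.

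The members Hacd1, Hsd17b12 and Hacd2 had an unadjusted p under 0.05 for series without passing the adjusted test, all with lower values in TKO1 to TKO6. With Elovl1 these are 4 of 10 members, where 27.7% of all genes tested had such a p. Hacd1 had a log2 fold change of -0.38 (SE 0.144, adjusted p = 0.0996), with 34.5 to 70.4 CPM in the S series and 33.4 to 52.5 CPM in the TKO libraries. Hsd17b12 had -0.28 (SE 0.116, adjusted p = 0.131), and Hacd2 had -0.33 (SE 0.140, adjusted p = 0.144). With no filter on low counts Hacd1 passed, with an adjusted p of 0.0225 by edgeR. Leaving out S12 brought Hacd1 to an adjusted p of 0.0462, and leaving out S4 brought Hsd17b12 to 0.0421, both by edgeR. Hacd3 had -0.30 (SE 0.139), Elovl5 0.18 (SE 0.134), Elovl6 -0.13 (SE 0.336) and Elovl7 -0.70 (SE 0.723). The reductase paralogs had 0.00 (SE 0.123) for Tecrl, with a 95% interval of 83.6% to 120% of the S series, and 0.15 (SE 0.0923) for Tecr. The median over the 10 members was -0.29, beside 0.01 over all genes tested.

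The Tecr values of the WT libraries also stood apart by series. WT1 and WT2 carried Y-linked transcripts and all 6 WT libraries of the S series carried Xist, so series and chromosomal sex cannot be told apart among WT libraries. WT1 and WT2 held 489 and 383 CPM, and the 6 WT libraries of the S series held 324 CPM in S1, 265 in S2, 253 in S3, 175 in S7, 305 in S8 and 209 in S9. These do not overlap, as was so for 13.5% of all genes tested. Some summed markers were also lower in WT1 and WT2 without overlap. Macrophage markers were at 163.5 to 176 against 217 to 358 CPM, and white adipocyte markers at 0.562 to 0.927 against 2.52 to 1060 CPM. Mesothelial markers were at 1.24 to 4.705 against 8.59 to 351 CPM, and atrial markers at 9.33 to 10.25 against 11.2 to 7014 CPM. Skeletal muscle markers did likewise near the floor, and the other lists overlapped. Their part was not tested. In a fit of all 20 libraries, added after the data were seen, with genotype and labelled sex as covariates, the WT/TKO series was higher in Tecr by a log2 fold change of 0.38 (SE 0.121, adjusted p = 0.0351 by edgeR) and lower in Elovl1, with -0.50 (SE 0.108, adjusted p = 0.00429). These are 2 of 10 members, where 16.4% of all genes tested passed in that fit, and the labelled sex used as covariate goes against the sex-linked genes in 6 of the 20 libraries.

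**Figure D4:**
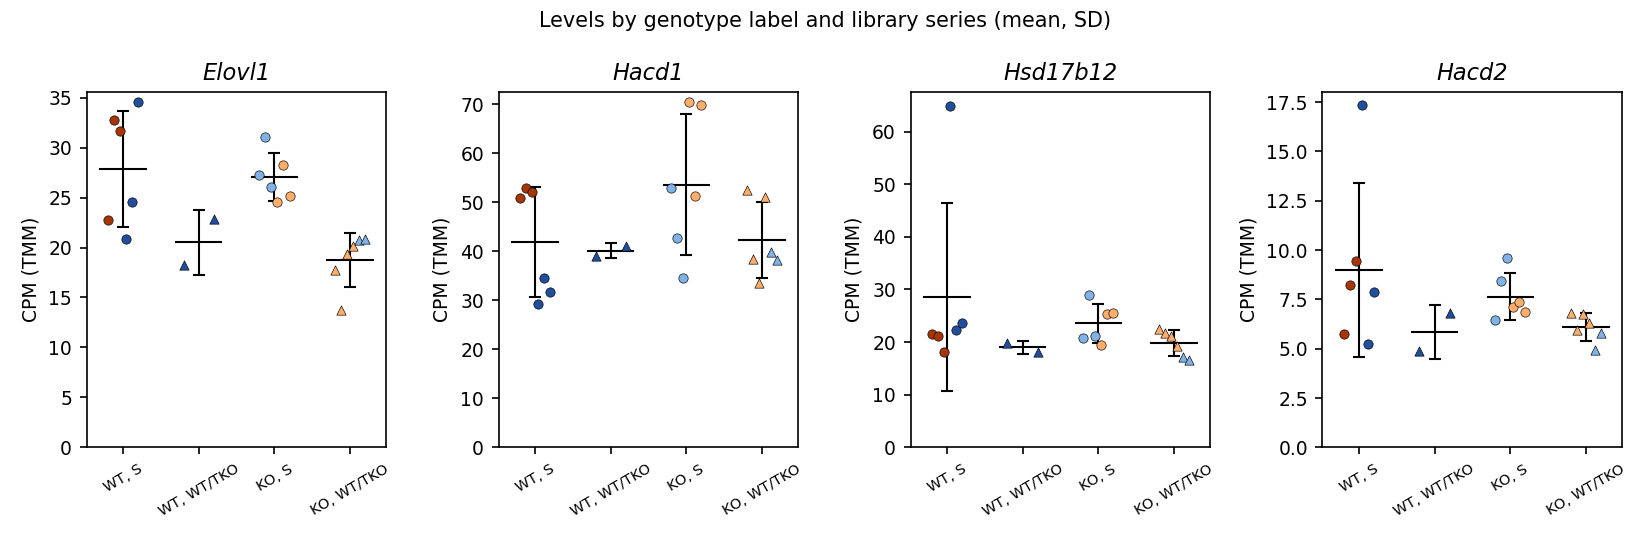
CPM of Elovl1, Hacd1, Hsd17b12 and Hacd2 by genotype label and library series, 1 point per library in the colour of its labelled group (blue male, orange female), with the mean and SD. Elovl1 lies at 13.8 to 20.9 CPM in the KO libraries of the WT/TKO series and at 24.6 to 31.1 CPM in those of the S series, and the high WT point of Hsd17b12 and Hacd2 is S7.

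Library S7, labelled male WT, held the members in other proportions than the rest. Elovl6 stood at 19.1 CPM, against 0.0618 to 1.78 CPM in the other 19 libraries, which was 19.4 times their median. Hsd17b12 was 3.05 times the median of the others, at 64.8 CPM against 16.7 to 29.0, and Hacd2 was 2.55 times, at 17.4 CPM against 4.88 to 9.62. Tecrl, Tecr and Hacd1 were lower in S7 than in every other library, at 0.609, 0.486 and 0.687 of the median of the others. Hacd3, Elovl1, Elovl5 and Elovl7 lay inside the range of the other libraries. Some lipogenic genes outside the set also had their highest values there: Fasn, fatty acid synthase, stood at 679 CPM against 13.8 to 30.9, Acaca, which makes malonyl-CoA, at 177 CPM against 8.46 to 15.9, and Scd1, the stearoyl-CoA desaturase, at 854 CPM against 28.1 to 163. Of the supply and desaturase lists, Acacb, Mlycd and Fads3 were highest by FPKM in S3, S1 and S9, and the remaining genes in S7. The 7 white adipocyte markers summed to 1060 CPM in S7 and to 0.501 to 56.0 CPM elsewhere; 6 of 7 were highest in S7, and Lep was at 0. The 5 atrial markers summed to 7014 CPM in S7, but also to 5894 CPM in S9 and 7207 CPM in S11, where Elovl6 was at 1.78 and 1.08 CPM. In S9 and S11, Tecrl stood at 70.2 and 60.3 CPM and Tecr at 209 and 274 CPM. The medians without S7 were 85.2 and 360 CPM, so these low levels were not particular to S7. Hacd1 stood at 31.8 CPM in S9 and 42.7 CPM in S11, against a median of 42.7 CPM. The 5 mesothelial markers summed to 351 CPM in S7 and to 1.05 to 115 CPM elsewhere. The 9 ventricular markers summed to 36190 CPM in S7, the lowest of the 20 libraries and 0.729 of the median of the others, and the 6 smooth muscle and pericyte markers and the 5 red blood cell markers were also lowest there, at 668 and 28.7 CPM. The 7 fibroblast markers summed to 1436 CPM, the highest of the 20 libraries, and mitochondrial genes took 15.3% of the counts of S7, against 19.3% to 30.4% elsewhere. The part of these in the levels of the members was not tested.

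**Figure D5:**
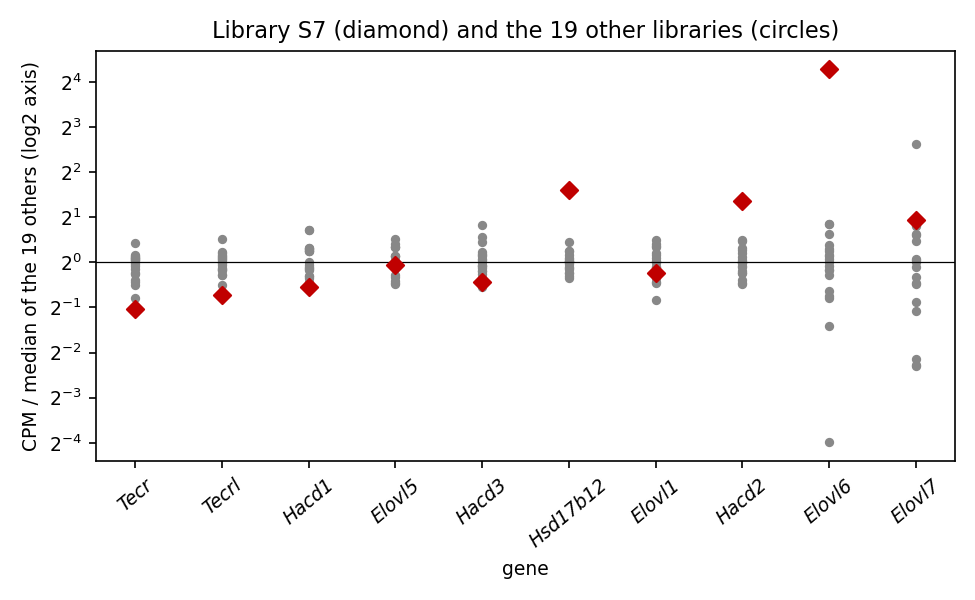
CPM of each member divided by the median of the 19 libraries other than S7 (log2 axis), S7 as a red diamond and the others as grey circles. S7 is the highest library for Elovl6, Hsd17b12 and Hacd2 and the lowest for Tecrl, Tecr and Hacd1.

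Across libraries the reductase paralogs varied in the same direction, with a Pearson r of 0.805 for log2 CPM of Tecrl and Tecr over 20 libraries and 0.701 without S7. Tecr ran opposite to Hacd2 (r = -0.794, and -0.648 without S7) and to Elovl1 (r = -0.544, and -0.781 without S7). Hacd2 and Elovl6 ran together (r = 0.860, and 0.666 without S7). These correlations are descriptions, since libraries share a series, a genotype label and the composition of the tissue. The genes most like Tecrl, of 15177 compared, were Asb14 (r = 0.901), Mpst (0.895), Fbxo31 (0.879), Tango2 (0.876) and Tmod4 (0.875), with r of 0.821 to 0.858 without S7, where Mpst, Tango2 and Tmod4 ranked 7, 14 and 12. Those most like Tecr were Ifngr2 (r = 0.957), Echdc3 (0.952), Cpt2 (0.950), Mmaa (0.946) and Cbr4 (0.944), with r of 0.919 to 0.947 without S7, where Ifngr2 ranked 3 and the others 9 to 27. For Hacd1 they were Susd1 (r = 0.859), Nectin4 (0.831), Rala (0.825), Higd2a (0.814) and Ppif (0.809), with r of 0.788 to 0.847 without S7. For Elovl6 they were Myof, Fcna, Epb41l2, Slc25a1 and Acly (r = 0.854 to 0.882), which dropped to 0.573 to 0.710 without S7.

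The genes around the cycle were read from 7 lists covering desaturases, the supply of malonyl-CoA and palmitate, acyl-CoA synthetases, ceramide synthases, peroxisomal oxidation, other elongases and dehydratases, and relatives of steroid 5-alpha reductase. For KO against WT, 0 of their genes passed the adjusted test with either label of sex or over all libraries, and 3 of 39 tested genes, 9 of 37 and 5 of 40 had an unadjusted p under 0.05 in turn, beside the 4.75%, 17.9% and 4.93% of all genes. The supply list had 6 of 6 genes with a negative log2 fold change by male labels (median -0.56), and Acaca had the smallest p of them, with -1.69 (SE 0.767, adjusted p = 0.882). These values leaned on S7: without it 4 of 6 were negative (median -0.14) and Acaca had -0.22 (SE 0.134). By female labels it had 4 of 6 negative, with Acacb, which forms malonyl-CoA at mitochondria, at -0.60 (SE 0.153, unadjusted p = 0.00173, adjusted p = 0.144). Of the 4 ceramide synthases tested by female labels, 1 was higher and 2 were lower at an unadjusted p under 0.05 by edgeR. Of the 8 acyl-CoA synthetases tested there, 2 were lower at that threshold. Of the peroxisomal list, 6 of 10 tested genes were positive and 4 negative in the same libraries, with the transporter Abcd3 at -0.58 (SE 0.160, adjusted p = 0.150) and Scp2 at 0.39 (SE 0.139, adjusted p = 0.203). The desaturase Scd1 had 0.69 (SE 0.190, adjusted p = 0.150). It stood at 34.3 to 37.4 CPM in female WT, at 28.5 to 38.8 CPM in TKO1 to TKO6 and at 47.5 CPM or more in the KO libraries of the S series. The values by female labels rest on S4 to S6, where genotype and chromosomal sex cannot be told apart. Of the desaturases 6 of 7 tested genes were negative by male labels (median -0.49), but 4 of 7 without S7 (median -0.09), and 1 of 7 was negative by female labels. Also negative by male labels were 8 of 8 tested acyl-CoA synthetases (median -0.22) and 9 of 11 peroxisomal genes (median -0.17). The ceramide synthases had 2 of 4 negative, and over all genes tested it was 7664 of 14481. The part of S7 in these lists was not tested.

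Between series among KO libraries, 5 of 38 tested genes of these lists passed, all lower in TKO1 to TKO6, a share near the 11.2% of all genes. Scd1 ran from 47.5 to 143 CPM in the S series and from 28.5 to 38.8 CPM in the TKO libraries, a log2 fold change of -1.19 (SE 0.203, adjusted p = 0.00313). Acsl5, an acyl-CoA synthetase, had -0.52 (SE 0.106, adjusted p = 0.00785). The ceramide synthases Cers2, which uses very-long-chain acyl-CoA, and Cers6 had -0.40 (SE 0.0912, adjusted p = 0.0133) and -0.82 (SE 0.177, adjusted p = 0.00993). Slc27a2, a very-long-chain acyl-CoA synthetase, had 3 counts in all in the 6 TKO libraries against 208 in the 6 S libraries, and its adjusted p was 0.00275. In the elongase and dehydratase list 0 of 2 tested genes passed, and Elovl2, Elovl3 and Elovl4 had medians of 0.0370, 0.0209 and 0.117 FPKM, as low as Elovl6 and Elovl7.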

How the data were processed

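Poly-A RNA of mouse hearts was sequenced as 150 bp paired-end reads, and the library kit is not named as stranded. The authors deposited 1 table with whole-number counts and FPKM for 29339 genes. HISAT2, HTSeq 0.6.1p2, DESeq2 1.26.0 and GRCm38 are named in the submitters' processing notes without settings. FPKM of the authors equals the deposited count per exon length and library total, with lengths within 1% of GENCODE release M21 for 28729 genes. No row names no gene.

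Counts were tested with edgeR 4.0.16 (TMM, quasi-likelihood test, genes reaching 10 counts in 3 or more libraries, Benjamini-Hochberg over all genes tested, R 4.3.3) with library series or labelled sex as covariate. CPM use TMM library sizes over all 20 libraries, and intervals are at 95%. By female labels, the series covariate leaves S1 to S3 and S4 to S6 to carry the genotype effect. DESeq2 1.42.0, limma 3.58.1 with a pseudocount of 1, other filters, normalizations and covariates, and leaving out libraries were the alternatives. The fits were tried on simulated counts with a fixed spread, no outlying library and changes only in genes of moderate counts. Those settings cover neither a library like S7 nor counts as low as those of Elovl6 and Elovl7. Log2 CPM for correlations used a prior count of 2.

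The rule for named genes covers all members, at most 3 genes per list with an unadjusted p under 0.05, and the 5 genes most like 4 members. The members and lists were chosen with earlier results of these data known. Nothing states that libraries of a group are separate animals beyond the paper's account of 1 library per mouse, and it states 3 mice per group where the labels give 3 to 7 libraries. No pair of libraries within a group agreed within counting error (chi-square per degree of freedom 11.4 or more over 44 pairs). Outlying libraries were sought with Dixon's test within the 3 labelled groups of 5 or 7 libraries, and not in the 3 female WT libraries. Depth (12540002 to 20038593 counts) limits Elovl6 and Elovl7 most. Promoter sequences are from RefSeq.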

Additional observations from a re-analysis of the deposited data

Results flagged for a closer look

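In the 3 labelled groups of 5 or 7 libraries, the 10 genes and the ratio of Tecr to Tecrl, 33 combinations with a group in all, were examined for a library far from the others, and chance flags about 1 in 20. Library S7 was far above the other 4 male WT libraries in Hsd17b12 (64.82 CPM against 18.1 to 23.6), in Hacd2 (17.37 CPM against 4.88 to 7.86) and in Elovl6 (19.06 CPM against 0.0618 to 1.78). In S11, a male KO library, Elovl7 stood at 2.167 CPM (30 counts) against 0.0805 to 0.367 CPM in the other male KO libraries.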

How the results depend on the processing

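No paired analysis was possible because the library names carry no replicate number that joins a KO to a WT library; numbers shared between labelled groups follow accession order. The Y-linked level was not added as a covariate for female labels, since S4 to S6 alone differ in it and alone carry the KO effect there. For the series comparison, the fits over all 20 libraries and over male WT libraries alone were chosen after seeing the data, as was leaving S7 out of the desaturase and supply lists. Depth limits Elovl6 and Elovl7.

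The number of members passing for the series comparison, 1 in the reported fit, was 2 with no filter on low counts (Hacd1 added) and over all 20 libraries (Tecr added), and 0 in libraries labelled male alone, without S4, S5 and S6, and in the labelled male WT libraries alone; leaving out single libraries gave 1 to 2 (2 without S12 or S4). By female labels it was 0 to 1 (1 without S1).

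Log2 fold changes that changed sign, KO against WT with male labels, were as follows. With no series covariate Tecrl was -0.0039. With the Y-linked level as covariate Tecrl was -0.21, Tecr -0.22, Hacd1 -0.0805, Elovl1 -0.0024, Elovl6 0.87 and Elovl7 -1.37. In the WT/TKO series alone Tecrl was -0.18, Tecr -0.19 and Hacd1 -0.0527. Without S7, S8 and S9 Tecrl was -0.18, Tecr -0.19, Hacd1 -0.0524 and Elovl6 0.81. Single libraries left out gave Tecrl -0.11 to 0.17, Hacd2 -0.41 to 0.12, Hacd3 -0.27 to 0.0510, Elovl1 -0.0342 to 0.18, Elovl6 -1.97 to 0.43 and Elovl7 -0.0027 to 0.40. With female labels Hacd3 was -0.0089 with at least 10 counts in every library, -0.0485 with no series covariate, -0.00030 in the S series alone and -0.0936 without S4, S5 and S6, where Hacd1 was -0.25; single libraries left out gave Hacd2 -0.31 to 0.0306, Hacd3 -0.11 to 0.0920, Elovl6 -0.22 to 0.26 and Elovl7 -0.45 to 0.37. Over all libraries Tecrl and Tecr were -0.14 and -0.0337 with the Y-linked level, -0.25 and -0.20 in the WT/TKO series alone, and -0.15 and -0.0461 without the libraries against their label, and Tecrl was -0.0207 to 0.16 with single libraries left out. For series, Tecrl was -0.0397 with upper-quartile normalization, -0.0036 without mitochondrial genes, -0.0070 with no filter, -0.0609 by limma and -0.14 with female labels alone, where Elovl6 was 0.0862; Hacd1 was 0.33 in male WT libraries alone; single libraries left out gave Tecrl -0.0713 to 0.0591 and Elovl6 -0.29 to 0.0498. For genotype by sex, Elovl6 was 2.46 in the reported fit, -0.24 without the libraries against their label and -0.17 to 2.85 with single libraries left out. The cause was not tested. None of the values with changed sign passed the adjusted test.

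Over all genes, calls at the adjusted threshold moved by over 1.5 times as follows. With male labels the 0 became 13 by DESeq2, 59 with no filter, 5 in the S series alone, 2 in the WT/TKO series alone and 1 without TKO6. With female labels the 8 became 383 by DESeq2, 1110 with no filter, 0 with at least 10 counts in every library, 2 with no series covariate and 366 without S4, S5 and S6, and ran from 1 to 2409 with single libraries left out (2409 without S1). Over all libraries the 0 became 12 by DESeq2, 3 with no filter, 1 by limma, 7 with the Y-linked level, 9 in the S series alone and 13 without the libraries against their label. For genotype by sex the 0 became 20 by DESeq2 and 129 with no filter. For series the 1622 became 2507 with no filter, 7 with male labels alone, 924 with female labels alone, 71 without S4, S5 and S6, 2497 over all 20 libraries and 1 in male WT libraries alone, and ran from 752 (without S6) to 1740 with single libraries left out.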

Other observations

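Genes on the lists around the cycle with a median FPKM above that of Tecrl included Scp2, Acsl1 and Mlycd. Scp2, a peroxisomal lipid carrier and thiolase, had a median of 86.7 FPKM, Acsl1, the main heart acyl-CoA synthetase, 55.1 FPKM, and Mlycd, which degrades malonyl-CoA, 49.2 FPKM. Of the malonyl-CoA forming carboxylases, Acacb had a median of 32.4 FPKM and Acaca 0.685 FPKM. Of the ceramide synthases, Cers2 had 12.6 FPKM, Cers5 6.81 FPKM and Cers6 0.615 FPKM. Among the desaturases Fads3 had 21.8 FPKM and Scd1 8.07 FPKM. The relative Srd5a3 of the reductases had 1.03 FPKM, and Srd5a1 and Srd5a2 had 0.115 and 0.0910 FPKM.

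The ratio of Hacd1 to Hacd2 in FPKM ran from 6.35 to 18.0 in the 19 libraries other than S7 and was 2.99 in S7. The ratio of Tecr to Tecrl was 3.62 in S7, inside the range of the others.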
